A study of Mus musculus with 16 samples.

Results

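The genes described here are 9 members of the secretory calcium-binding phosphoprotein family that lie in one stretch of mouse chromosome 5. They comprise 5 casein genes (Csn1s1, Csn2, Csn1s2a, Csn1s2b and Csn3) and 4 genes of enamel and the tissue that seals the gum to the tooth (Odam, Amtn, Ambn and Enam). They were chosen by gene symbol after the levels of several of them had been seen to differ between the groups of these arrays, so their own differences are given as a description, with standard errors and no p-value. All 9 of 9 were measured, each by 1 probe set, among 19938 genes with a single symbol in the platform annotation.

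The samples come from mouse CD8 T cells of 2 clones, a conventional clone that the labels call cyclosporine-sensitive and an unconventional clone that they call cyclosporine-resistant. Each stands for 1 clone, and the labels give neither strain nor age. All cells had been grown with a mixture of IL-1a, IL-6, IL-7, IL-15, TNF-α, IFN-α and IFN-g, and were then activated with immobilized anti-CD3 antibody in RPMI medium that held no recombinant cytokines. Cyclosporine A (CsA) was absent or present at 1 ug/ml. CsA, bound to cyclophilin, blocks calcineurin, the phosphatase that lets NFAT factors enter the nucleus. There were 4 arrays in each of 4 groups, named below as the conventional or unconventional clone under anti-CD3 alone or with CsA. Resting cells of the clones were not analysed here. The labels do not say whether replicates were separate cultures, so the errors and p-values cover the spread among these samples alone, and that spread may be technical.

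Caseins are the main proteins of milk. They are phosphorylated on clusters of serine and carry calcium in micelles, and in mammary epithelium prolactin induces their genes through the receptor-bound kinase Jak2 and the transcription factor Stat5, together with glucocorticoid. The enamel proteins are secreted by ameloblasts, the epithelial cells that build tooth enamel, and arose from the same ancestral gene family. Neither group of proteins is used to define CD8 T cells.

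Levels are deposited log2 expression values per probe set, on which 1 unit is a doubling. Over all genes and arrays the lower quartile of values was 4.09 and the median 5.46, so values of 3 to 4 are near the background of the array, and a fold change measured against such a level understates the change in RNA. Probe sets differ in how brightly they read, so each gene is compared between groups and not with another gene. Arrays of a group correlated at 0.995 to 0.998, and their number limits the precision. Of the markers of the labelled cell type, the mean of 7 CD8 T cell genes lay between 9.86 and 10.72 on every array, Cd3e group means lay between 10.52 and 11.09, and Cd4 stayed between 4.21 and 4.32. Cd5, a T cell surface protein in that list, read low, with group means between 4.83 and 5.12. Cd8a, a chain of the CD8 co-receptor, stood at 12.50, 11.92, 10.31 and 8.56 in the conventional clone alone and with CsA and the unconventional clone alone and with CsA. Cd8b1, the other chain, stood at 12.31, 12.31, 10.24 and 10.26 in the same order, so it did not share the fall with CsA.

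The sequences just upstream of the start of 7 of the 9 members were found in RefSeq (GRCm38.p6), as were those of a pair of neighbouring genes described below. The 250 bases before the start are printed for the casein genes that fell together with CsA, Csn1s1 (chr5:87665958-87666207, plus strand) and Csn2 (chr5:87699426-87699675, minus strand), and for their neighbour BC037156 (chr5:87908529-87908778, plus strand), whose levels followed the same order as those of Csn2. Amtn (chr5:88375858-88376107, plus strand) and Ambn (chr5:88455741-88455990, plus strand) are shown because their levels went opposite ways between the clones. Each runs 5′ to 3′ on the strand of the gene, and capitals mark a match to TTCNNNGAA, the core that STAT factors such as Stat5 bind.
Csn1s1: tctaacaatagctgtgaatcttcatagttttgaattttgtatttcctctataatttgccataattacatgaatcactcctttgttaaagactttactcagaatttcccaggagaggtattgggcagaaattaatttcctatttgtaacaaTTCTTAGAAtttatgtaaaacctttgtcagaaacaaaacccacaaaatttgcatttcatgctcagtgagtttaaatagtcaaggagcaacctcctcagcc
Csn2: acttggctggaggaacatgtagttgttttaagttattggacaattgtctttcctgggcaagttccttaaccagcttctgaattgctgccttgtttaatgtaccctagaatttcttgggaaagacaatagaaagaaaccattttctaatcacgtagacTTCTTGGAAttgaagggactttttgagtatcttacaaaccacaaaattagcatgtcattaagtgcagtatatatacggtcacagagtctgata
BC037156: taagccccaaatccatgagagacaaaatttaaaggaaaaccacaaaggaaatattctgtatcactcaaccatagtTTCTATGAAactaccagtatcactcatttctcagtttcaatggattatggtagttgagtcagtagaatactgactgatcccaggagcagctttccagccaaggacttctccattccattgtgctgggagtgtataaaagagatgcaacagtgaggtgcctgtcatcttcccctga
Amtn: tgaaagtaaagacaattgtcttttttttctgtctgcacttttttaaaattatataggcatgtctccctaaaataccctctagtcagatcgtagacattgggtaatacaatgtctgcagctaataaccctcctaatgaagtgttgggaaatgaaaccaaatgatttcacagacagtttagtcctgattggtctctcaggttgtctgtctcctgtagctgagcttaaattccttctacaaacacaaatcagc
Ambn: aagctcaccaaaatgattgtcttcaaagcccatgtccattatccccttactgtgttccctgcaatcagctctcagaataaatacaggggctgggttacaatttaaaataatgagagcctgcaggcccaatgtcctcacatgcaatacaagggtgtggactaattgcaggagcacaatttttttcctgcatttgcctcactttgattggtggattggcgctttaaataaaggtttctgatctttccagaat
Csn1s1 held TTCTTAGAA beginning 100 bases before the start and Csn2 held TTCTTGGAA beginning 93 bases before it. BC037156 held TTCTATGAA beginning 175 bases before the start. The letters TTCNNNGAA read the same on both strands. They occurred in 2 of the 7 member promoters, and in 7.02% of all 32851 promoters of the table in the same window. No match lay in this window of Csn1s2a, Odam, Amtn, Ambn or Enam.

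Other motifs were searched on both strands. The NFAT core GGAAA occurred in 7 of the 7 member promoters, and in 55.6% of all promoters. The AP-1 motif TGANTCA was in Csn1s1 (TGAATCA, 182 bases before the start) and Odam (TGAATCA, 88 bases), and in 6.75% of all promoters. The RUNX core TGTGGT, as ACCACA on the other strand, was in Csn2 (56 bases) and Odam (143 bases), against 14% of all promoters. TATAAA was in Enam alone among the 7 (137 bases before the start, 12.4% of all promoters), and the glucocorticoid receptor core AGAACA, as TGTTCT, in Csn1s2a alone (59 bases, 16.1%). No STAT match in the member promoters overlapped a match to another motif. BC037156 also held TGAGTCA (121 bases before the start), ACCACA (212 bases) and TATAAA (44 bases), while none of the motifs searched was in this window of Sult1e1. These matches are letters in a window and were not tested for binding.

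Csn1s1 encodes αS1-casein, a calcium-sensitive casein of the micelle. Its 4 arrays of the conventional clone under anti-CD3 alone read 12.45, 12.39, 12.35 and 12.42, and with CsA 8.86, 8.87, 8.83 and 9.19. In the unconventional clone the arrays read 10.12, 9.96, 10.20 and 9.82 with anti-CD3 alone and 6.58, 6.39, 6.32 and 6.57 with CsA. The 4 groups stood apart with no overlap, and the order was conventional alone, unconventional alone, conventional with CsA and unconventional with CsA. With CsA the level was lower by 11-fold in the conventional clone (log2 change −3.46, SE 0.09) and by 11.8-fold in the unconventional clone (−3.56, SE 0.09). These falls lay within their errors of each other, with a difference of −0.10 (SE 0.13). The unconventional clone stood below the conventional one in both conditions, with a log2 difference of −2.38 (SE 0.09) with anti-CD3 alone and −2.48 (SE 0.09) with CsA. In such bulk samples fewer cells making a transcript and less transcript per cell cannot be told apart, here and for each gene below.

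Csn2 encodes β-casein, another calcium-sensitive casein and a standard readout of prolactin signalling. The conventional clone read 11.62, 11.41, 11.46 and 11.76 with anti-CD3 alone and 9.37, 9.43, 8.82 and 9.41 with CsA. The unconventional clone read 7.05, 6.94, 7.13 and 7.24 with anti-CD3 alone and 5.51, 5.08, 5.07 and 5.52 with CsA. Every array of the conventional clone, with or without the drug, lay above every array of the unconventional clone. With anti-CD3 alone the clones differed by 22.2-fold (−4.47, SE 0.13), the largest difference between the clones among the 9 genes, and with CsA by 15.6-fold (−3.96, SE 0.13). CsA was associated with a level 4.93-fold lower in the conventional clone (−2.30, SE 0.13) and 3.47-fold lower in the unconventional clone (−1.79, SE 0.13), a difference of 0.51 (SE 0.19) between the clones.

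Csn3 encodes κ-casein, which coats the casein micelle and keeps it in solution. It read 10.74, 10.30, 10.34 and 10.63 in the conventional clone under anti-CD3 alone and 11.20, 11.36, 11.17 and 11.34 with CsA. In the unconventional clone it read 8.14, 7.92, 8.39 and 8.05 with anti-CD3 alone and 8.37, 8.42, 8.41 and 8.49 with CsA. Unlike Csn1s1 and Csn2, it was higher with CsA in the conventional clone, with no overlap between the arrays (0.77, SE 0.10, or 1.7-fold). In the unconventional clone the change was 0.30 (SE 0.10), and the highest array without CsA (8.39) lay above the lowest with it (8.37). The CsA effects differed by −0.47 (SE 0.15) between the clones. The clone difference held in both conditions: Csn3 was lower in the unconventional clone, with a log2 difference of −2.38 (SE 0.10) with anti-CD3 alone and −2.84 (SE 0.10) with CsA.

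The αS2-casein paralogs Csn1s2a and Csn1s2b were near background on every array. Csn1s2a lay between 3.00 and 3.38 and Csn1s2b between 3.05 and 3.82, and for both genes groups next to each other in order overlapped. The CsA and clone differences of Csn1s2a lay between −0.11 and 0.00, with an SE of 0.08. Csn1s2b was lower in the unconventional clone under anti-CD3 alone (log2 difference −0.34, SE 0.10). These genes sit between Csn2 and the next members in gene order, so the stretch from Csn1s1 to Csn3 was not read at one level throughout.

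**Figure D1:**
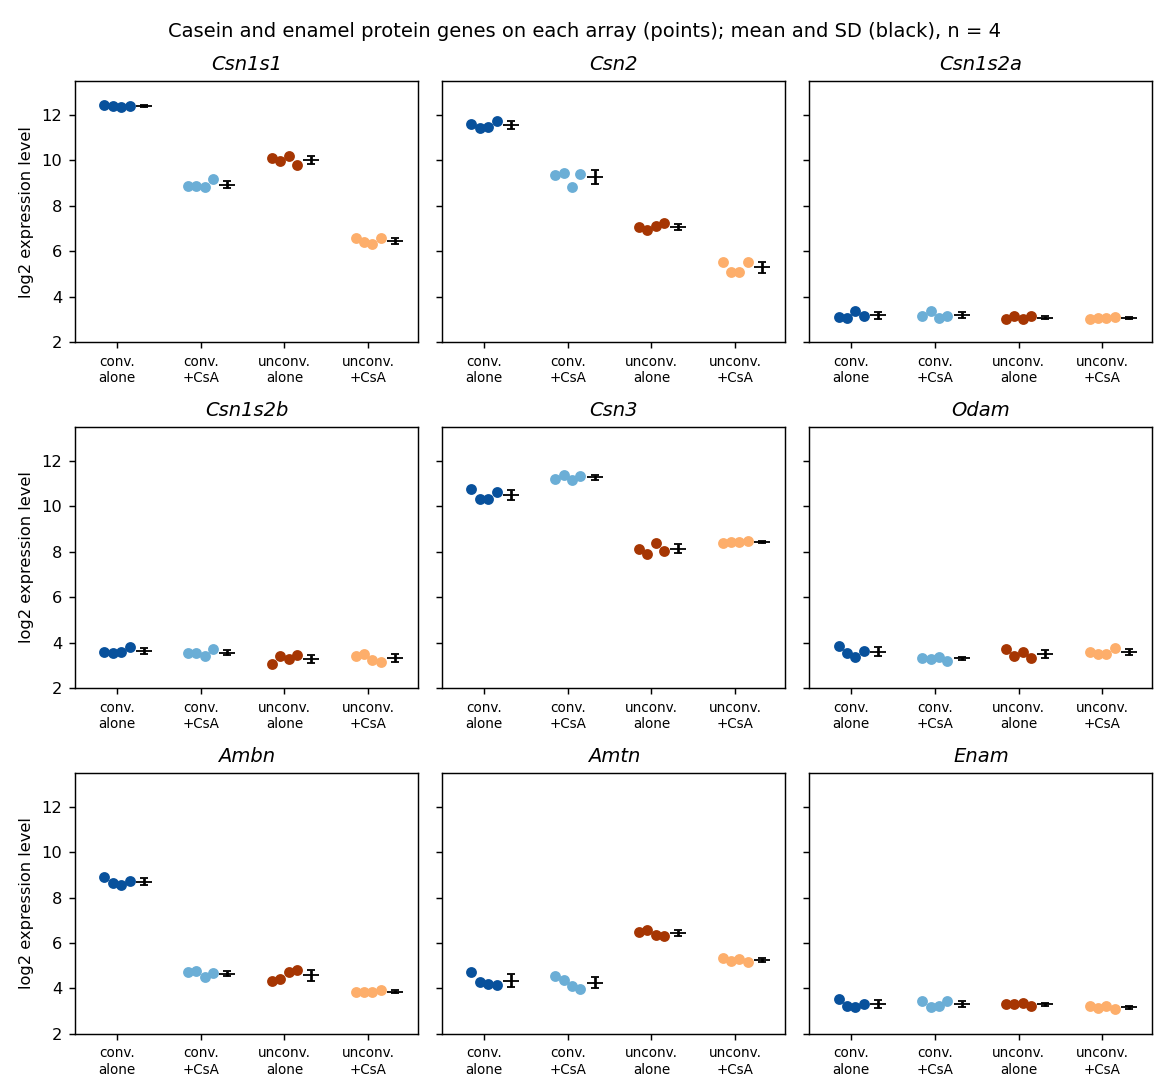
Log2 expression level (vertical axis) of each of the 9 genes on each of the 16 arrays (coloured points), by clone (conv., conventional; unconv., unconventional) and condition (anti-CD3 alone or with CsA), with the mean and SD of 4 arrays in black. Csn1s1 and Csn2 are lower with CsA in both clones, Csn3 is higher with CsA in the conventional clone, Ambn is high only in the conventional clone under anti-CD3 alone, and Csn1s2a, Csn1s2b, Odam and Enam stay under 4 on every array.

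Ambn encodes ameloblastin, an enamel matrix protein. It read 8.90, 8.64, 8.54 and 8.73 in the conventional clone under anti-CD3 alone. With CsA the same clone read 4.71, 4.75, 4.48 and 4.68. The unconventional clone read 4.34, 4.43, 4.71 and 4.81 with anti-CD3 alone and 3.83, 3.86, 3.82 and 3.93 with CsA. One group out of 4 was therefore high, and the conventional clone with CsA overlapped the unconventional clone without it. The level was 16.5-fold lower with CsA in the conventional clone (−4.05, SE 0.10) and 1.64-fold lower in the unconventional clone (−0.71, SE 0.10), where it started close to background. The CsA effects differed by 3.34 (SE 0.14), the largest difference of effects among the 9 genes. The clones differed by 17.5-fold with anti-CD3 alone (−4.13, SE 0.10) and by 1.73-fold with CsA (−0.79, SE 0.10).

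Amtn encodes amelotin, a protein of maturing enamel and of the junctional epithelium at the tooth surface. It was the member with the opposite clone pattern. The unconventional clone read 6.49, 6.56, 6.36 and 6.30 with anti-CD3 alone and 5.35, 5.20, 5.29 and 5.14 with CsA. The conventional clone read 4.74, 4.29, 4.17 and 4.13 with anti-CD3 alone and 4.54, 4.38, 4.12 and 3.98 with CsA, and these groups overlapped. Amtn was higher in the unconventional clone by 2.10 (SE 0.13) on the log2 scale with anti-CD3 alone and by 0.99 (SE 0.13) with CsA. With CsA the level was 2.28-fold lower in the unconventional clone (−1.19, SE 0.13), and the change in the conventional clone was −0.08 (SE 0.13), a difference of −1.11 (SE 0.18). The conventional clone started close to the lower quartile of all values, 4.09, which left little room for a fall to be seen there. Amtn and Ambn are next to each other in the measured gene order, and their high groups were those of different clones.

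Odam, which encodes the odontogenic ameloblast-associated protein, and Enam, which encodes enamelin, were near background. Odam lay between 3.19 and 3.85 and Enam between 3.09 and 3.55 over the 16 arrays. For Odam the CsA difference in the conventional clone was −0.29 (SE 0.10), with arrays that overlapped, and the clone difference with CsA present was 0.30 (SE 0.10). The CsA and clone differences of Enam lay between −0.14 and −0.02, with an SE of 0.08.

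**Figure D2:**
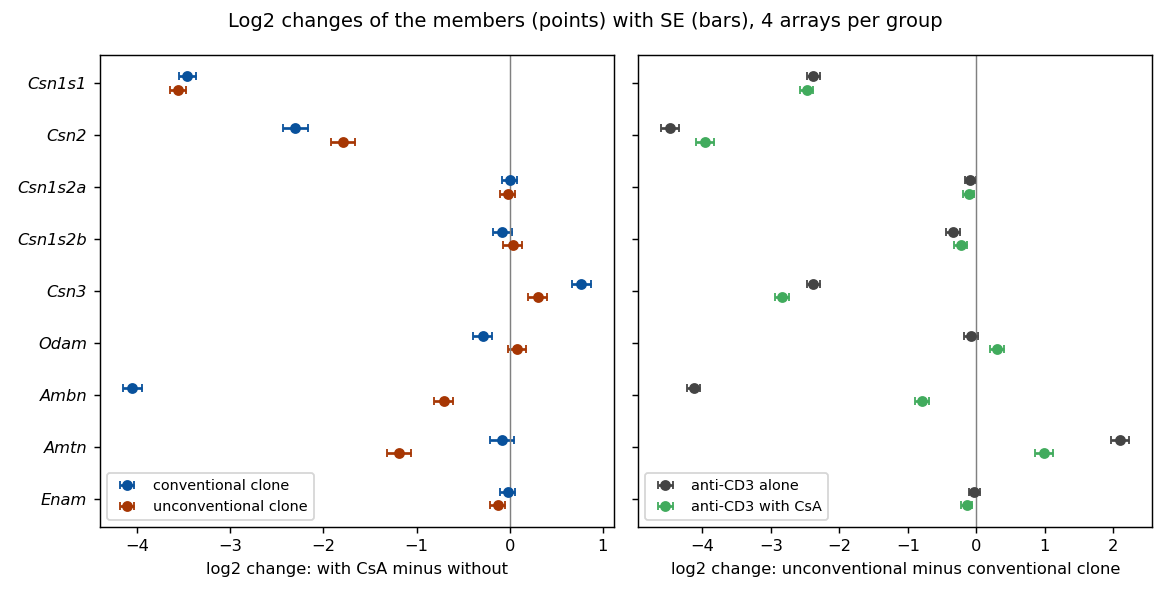
Log2 change (horizontal axis) of each of the 9 genes with its SE, for CsA against none in each clone (left) and for the unconventional against the conventional clone in each condition (right), from 4 arrays per group. Csn1s1 changes by −3.46 and −3.56 with CsA in the conventional and unconventional clones, while Ambn changes by −4.05 and −0.71, and Amtn is higher in the unconventional clone, at 2.10 and 0.99, where Csn2 is lower, at −4.47 and −3.96.

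The counts of members called at an adjusted p under 0.05 by limma over all genes are set beside the share of all genes called, and nothing is read from them, because the members were chosen with these contrasts in view. With CsA in the conventional clone 1 member was called higher and 4 lower, where 15.9% of all genes were called higher and 15.5% lower. In the unconventional clone 1 was called higher and 4 lower, beside 12.6% and 12.3% of all genes. For the difference of CsA effects 1 was called higher in the unconventional clone and 2 lower, beside 8.51% and 7.78%. For the unconventional against the conventional clone, 1 was called higher and 5 lower with anti-CD3 alone (20.3% and 21.7% of all genes) and 2 higher and 4 lower with CsA (21.3% and 23%). Some of these counts turn on a member near the threshold. Csn3 was counted in 12 of 21 alternatives for CsA in the unconventional clone, not with the replicate block, with median centring or without any of 7 single arrays, and in 11 of 21 for the difference of effects. Odam was counted in 15 of 20 alternatives for CsA in the conventional clone and in 18 of 20 between the clones with CsA, and Csn1s2b in 19 of 20 between the clones with anti-CD3 alone, not with median centring. Csn2, not counted for the difference of effects, was counted there with the replicate block and with quantile normalization. The median change of the 9 members in these 5 contrasts was −0.08, −0.13, −0.02, −0.34 and −0.23, beside 0.02, 0.02, 0.00, −0.07 and −0.08 over all genes. Centring each array on its median moved the split of calls over all genes in the unconventional clone with CsA from 2518 higher and 2452 lower to 1842 and 2751, and between the clones with anti-CD3 alone from 4048 and 4328 to 4316 and 3025. The CsA contrasts share no arrays with each other, while each clone contrast shares arrays with both CsA contrasts.

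The neighbouring genes were not part of the choice. In the RefSeq gene order, 8 measured genes lie between the first and the last member and 10 were taken on each side, 28 in all. With CsA 7 of the 28 were called lower in the conventional clone and 6 in the unconventional clone, and 0 were called higher by limma (1 and 0 at an unadjusted p under 0.05). The difference of CsA effects was called for 3, of which 2 were higher and 1 lower in the unconventional clone. Between the clones with anti-CD3 alone 4 were higher and 7 lower in the unconventional clone, and with CsA 4 and 5. Of all genes, 15.9% were called higher and 15.5% lower with CsA in the conventional clone, and 12.6% and 12.3% in the unconventional clone. For the difference of effects these shares were 8.51% and 7.78%. Between the clones they were 20.3% and 21.7% with anti-CD3 alone and 21.3% and 23% with CsA. The counts of the lists below are to be set beside the same shares. The median change of the 28 was −0.05 and −0.04 for CsA and −0.08 and −0.09 between the clones.

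Among the 8 genes inside the stretch, BC037156 was the one with a called CsA effect. It encodes the follicular dendritic cell secreted protein (FDC-SP), another small secreted protein of the region, and lies between Odam and Csn3. Its level was 10.47 ± 0.22 (SD, n = 4) in the conventional clone under anti-CD3 alone, 8.72 ± 0.29 (SD, n = 4) in that clone with CsA, 7.23 ± 0.23 (SD, n = 4) in the unconventional clone under anti-CD3 alone and 5.73 ± 0.28 (SD, n = 4) in that clone with CsA. The groups did not overlap and had the order of Csn2. It fell with CsA in the conventional clone (log2 change −1.75, SE 0.15, limma, adjusted p = 1.8e-08) and in the unconventional clone (−1.50, SE 0.15, adjusted p = 3.6e-07). The difference between these effects was 0.25 (SE 0.22, adjusted p = 0.5751). It was lower in the unconventional clone under anti-CD3 alone (−3.24, limma, adjusted p = 1.1e-12) and with CsA (−2.99, adjusted p = 2.4e-12). The gene next to it, Csn3, moved the other way with CsA in the conventional clone.

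The other 7 genes inside the stretch, Prr27, Gm7337, BC051076, Cabs1, Smr3a, Smr2 and Prol1, lay between 2.78 and 4.51 on every array. Smr3a, Smr2 and Prol1, which belong to a family of saliva and gland proteins, were called lower in the unconventional clone under anti-CD3 alone, with log2 differences of −0.18, −0.19 and −0.21 (limma, adjusted p = 0.0222, 0.0381 and 0.0448). Each of these calls was lost when arrays were centred on their medians or quantile-normalized again. Prol1 was also called lower in the unconventional clone with CsA (log2 difference −0.22), a call lost in 6 alternatives, both of these among them.

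Sult1e1, the estrogen sulfotransferase gene, is the measured gene next to Csn1s1 on the outer side. It stood at 3.56 ± 0.36 and 3.10 ± 0.07 (SD, n = 4) in the conventional clone alone and with CsA, and at 5.97 ± 0.11 and 4.85 ± 0.34 (SD, n = 4) in the unconventional clone. It was higher in the unconventional clone by 2.42 (SE 0.15) with anti-CD3 alone (limma, adjusted p = 8.8e-11) and by 1.76 (SE 0.15) with CsA (adjusted p = 7.4e-09). With CsA it fell in the unconventional clone (−1.12, SE 0.15, limma, adjusted p = 1.3e-05). This resembles Amtn rather than its neighbour Csn1s1 in which clone read high. In the conventional clone the change of −0.46 (adjusted p = 0.0272) lost its call in 4 of the fits without 1 array, and the difference of effects (−0.66, SE 0.22, adjusted p = 0.0446) lost its call with the replicate block (adjusted p = 0.0518) and in 13 of the 16 fits without 1 array.

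On the other side of the stretch, Dck, the deoxycytidine kinase gene of nucleotide salvage, and the pseudogene Mkrn1-ps1 had changes of at least 1 on the log2 scale. Dck stood at 8.23, 6.68, 9.66 and 9.39 in the conventional clone alone and with CsA and the unconventional clone alone and with CsA. It fell with CsA in the conventional clone (−1.55, SE 0.10, limma, adjusted p = 3.4e-10), and the effects differed by 1.27 (adjusted p = 3.0e-06). Mkrn1-ps1 stood at 8.61, 7.88, 6.83 and 6.58, lower in the unconventional clone under anti-CD3 alone (−1.79, limma, adjusted p = 2.3e-13). Its probes may also read its parent gene, so this level is uncertain.

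**Figure D3:**
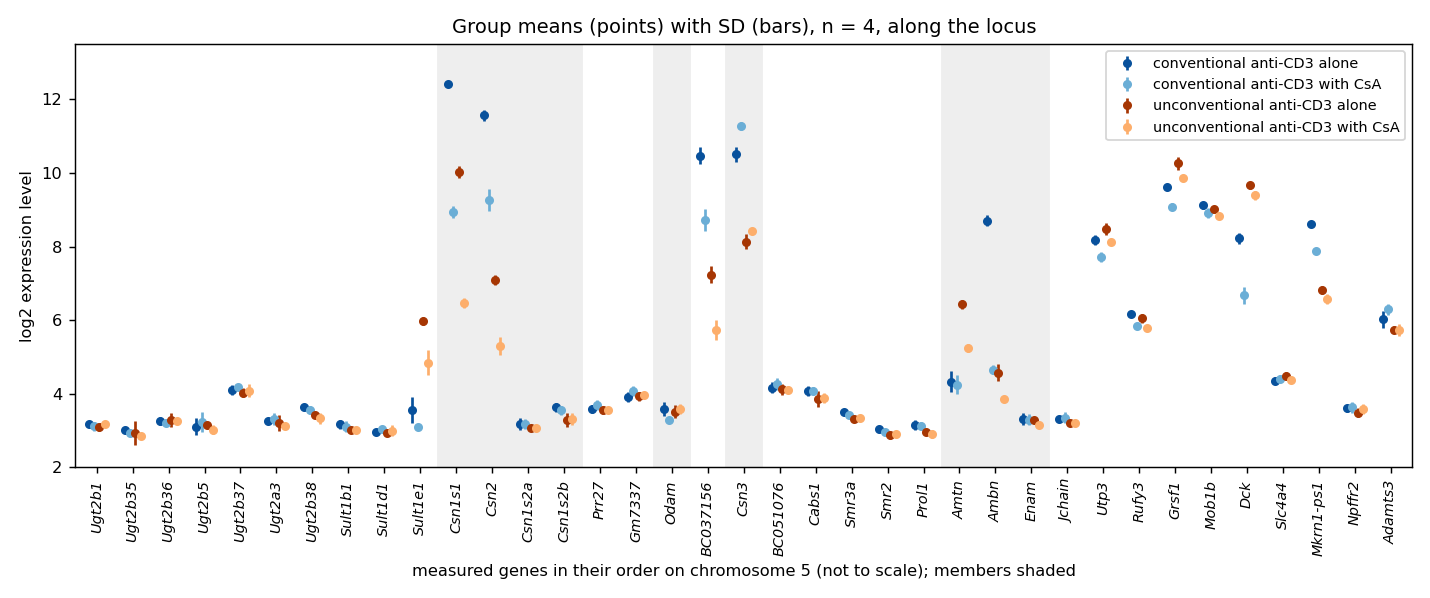
Group means of the log2 expression level (vertical axis) with SD, n = 4, for the 9 members (shaded) and 28 neighbouring genes in their order on chromosome 5, not to scale. Between the first and the last member, Csn1s1, Csn2, BC037156, Csn3, Amtn and Ambn read above 6 in at least 1 group, while the other genes there lie at or below 4.51 on every array. Outside, Sult1e1, Dck and Mkrn1-ps1 change by more than 1 log2 unit with CsA in a clone or between the clones in a condition.

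The list of casein regulators named 13 genes, of which 12 were measured, without Prlr, the gene of the prolactin receptor. With CsA 2 were called higher and 6 lower in the conventional clone, and 1 higher and 4 lower in the unconventional clone. The difference of CsA effects was called for 7 of the 12, of which 5 were higher in the unconventional clone and 2 lower. Between the clones 2 were higher and 5 lower in the unconventional clone under anti-CD3 alone, and 4 and 3 with CsA. The median change of the 12 was −0.24 and −0.06 for CsA in the conventional and unconventional clones, beside 0.02 and 0.02 over all genes.

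Stat5a, a factor that carries prolactin and cytokine signals to the casein genes, stood at 9.94 ± 0.07 and 8.07 ± 0.22 (SD, n = 4) in the conventional clone alone and with CsA, and at 9.38 ± 0.16 and 8.75 ± 0.07 (SD, n = 4) in the unconventional clone. It fell with CsA in the conventional clone (−1.87, SE 0.10, limma, adjusted p = 7.0e-12) and in the unconventional clone (−0.63, adjusted p = 4.4e-05), and the effects differed by 1.25 (adjusted p = 1.5e-06). Stat5b, its close relative, stood at 8.83, 8.43, 9.03 and 8.89 in the same order of groups, and its difference of effects (0.27, limma, adjusted p = 0.0383) lost its call with the replicate block (adjusted p = 0.0526) and with median centring (adjusted p = 0.2271), and in 10 of the 16 fits without 1 array. Jak2, the kinase upstream of Stat5, stood at 9.56, 8.28, 7.96 and 8.02. Its level fell in the conventional clone with CsA (−1.28, limma, adjusted p = 1.6e-11), and the effects differed by 1.34 (adjusted p = 8.6e-09). In the unconventional clone Jak2 changed by 0.06 (SE 0.07) with CsA. The part of these regulators in the levels of the caseins was not tested.

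Cish and Socs3 encode feedback inhibitors that Stat factors induce. Cish stood at 11.44, 10.19, 10.70 and 8.63, and fell with CsA in the conventional clone (−1.24, limma, adjusted p = 4.3e-11) and in the unconventional clone (−2.07, adjusted p = 5.8e-14). Its groups stood in the order of those of Csn1s1, and its effects differed by −0.83 (adjusted p = 6.3e-06). Socs3 stood at 9.20, 6.02, 6.91 and 6.19, which is one high group, as for Ambn. Its change with CsA in the conventional clone was −3.18 (limma, adjusted p = 3.4e-13), and the effects differed by 2.45 (adjusted p = 1.4e-08). With the mean of its probe sets these were −1.94 and 1.64, so the size depended on the probe set. Elf5, the epithelial factor that works with Stat5 in the mammary gland, lay between 4.59 and 4.70 in the group means, with no called change by limma.

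**Figure D4:**
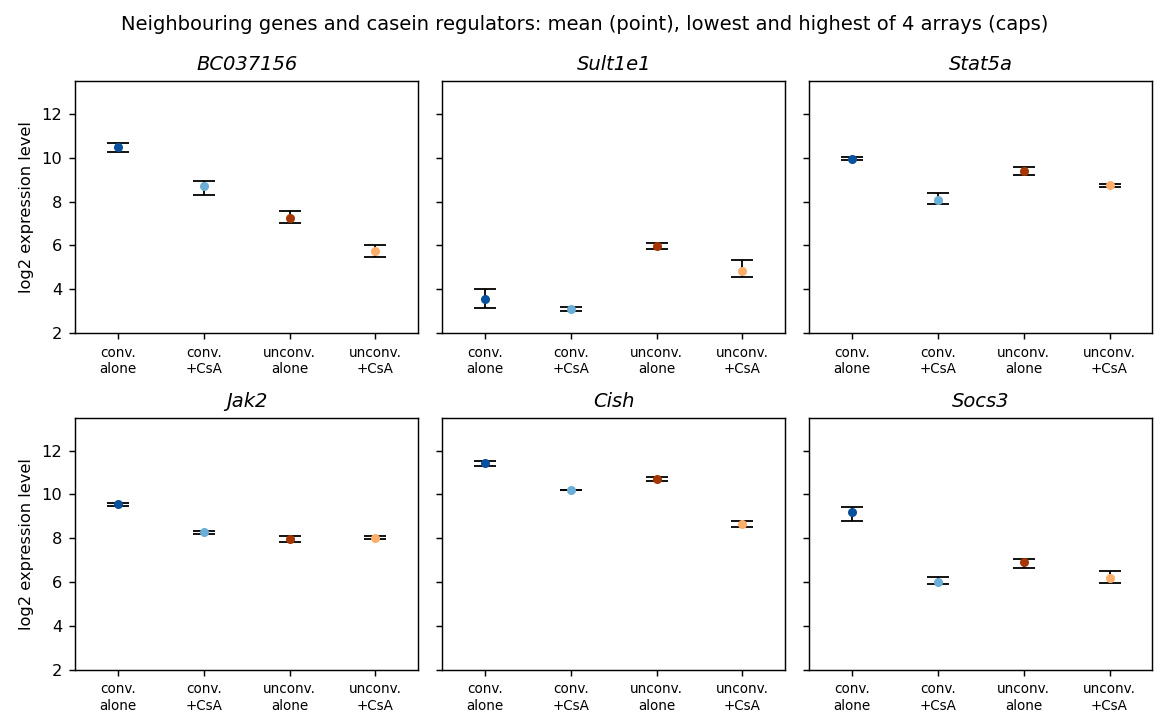
Log2 expression level (vertical axis) of the neighbouring genes BC037156 and Sult1e1 and of the casein regulators Stat5a, Jak2, Cish and Socs3 in each clone and condition (conv., conventional; unconv., unconventional), as the mean of 4 arrays (point) with the lowest and highest array (caps). BC037156 is lower with CsA in both clones, from 10.47 to 8.72 and from 7.23 to 5.73, and Jak2 is high in the conventional clone under anti-CD3 alone.

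Of 12 other genes of milk listed, 11 were measured: 3 were called higher with CsA and 0 lower by limma in the conventional clone (1 lower at an unadjusted p under 0.05), and 3 higher and 1 lower in the unconventional clone. Between the clones 3 were higher and 2 lower in the unconventional clone under anti-CD3 alone, and 2 and 1 with CsA, and the difference of effects was called for 2, both lower. Wap, the whey acidic protein gene of the mammary gland, lay between 5.26 and 5.59 in the group means. Mfge8, a secreted protein of milk fat globules that also bridges dying cells to phagocytes, stood at 7.45 ± 0.18, 9.61 ± 0.19, 10.18 ± 0.14 and 11.18 ± 0.09 (SD, n = 4) in the conventional clone alone and with CsA and the unconventional clone alone and with CsA. It rose with CsA by 2.16 in the conventional clone (limma, adjusted p = 2.2e-12) and by 1.00 in the unconventional clone (adjusted p = 3.3e-07). Plin2, a coat protein of lipid droplets, stood at 10.44, 11.76, 8.83 and 10.17 and rose with CsA by 1.33 in both clones (limma, adjusted p = 1.8e-10 and 4.7e-10).

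The list of other secretory calcium-binding phosphoprotein and SPARC genes named 9 genes, of which 8 were measured, and it includes BC037156. That gene, already described inside the stretch, was the 1 called lower with CsA in each clone, and 0 were called higher by limma (0 and 1 at an unadjusted p under 0.05). Between the clones 2 were called lower in the unconventional clone in each condition, BC037156 and the enamel gene Amelx (amelogenin), whose log2 differences were −0.29 with anti-CD3 alone and −0.20 with CsA (limma, adjusted p = 0.0016 and 0.0222). Of 11 listed regulators and processing genes of enamel 10 were measured, and 2 were higher with CsA in the conventional clone, 1 in the unconventional clone. Between the clones 2 were higher and 1 lower in the unconventional clone under anti-CD3 alone, and 2 and 2 with CsA. Fam83h, a gene mutated in inherited enamel defects, stood at 4.95 and 4.76 in the conventional clone alone and with CsA and at 7.46 and 7.63 in the unconventional clone, higher by 2.51 with anti-CD3 alone (limma, adjusted p = 8.4e-12). Fam20a, a partner of the kinase that phosphorylates secreted proteins of this family, was higher in the unconventional clone with CsA by 1.12 (limma, adjusted p = 2.5e-08). Both read higher in the clone in which Amtn was high and Ambn low.

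Since caseins and enamel proteins are products of epithelium, its markers were read on the same arrays. The mean of 12 epithelial markers lay between 4.78 and 5.02 on the arrays of the conventional clone under anti-CD3 alone and between 4.83 and 5.01 with CsA. In the unconventional clone it lay between 4.91 and 5.16 under anti-CD3 alone and between 5.22 and 5.27 with CsA. Of the 12, Cdh1, described below, had the largest change and raised the mean in the unconventional clone. Epcam, a defining surface protein of epithelium, lay between 4.28 and 4.30 in all group means. Of the 12 markers, 0 were called with CsA in the conventional clone by limma (0 at an unadjusted p under 0.05) and 1 was called higher in the unconventional clone: Cdh1, which encodes E-cadherin and is also made by some T cells, stood at 5.03, 5.05, 7.12 and 9.22 and rose by 2.10 (adjusted p = 1.9e-07). The mean of 5 B cell markers lay between 3.82 and 4.11 on every array, and that of 8 macrophage and dendritic cell markers between 4.99 and 5.37. Of those 8, 2 were called higher with CsA in each clone, Itgax and Cd68, and both were well expressed. Itgax stood at 8.91, 10.23, 9.28 and 10.04 and Cd68 at 7.26, 8.05, 8.71 and 9.13 in the conventional clone alone and with CsA and the unconventional clone alone and with CsA. The other markers of that list (Csf1r, Lyz2, Itgam, Adgre1, Cd14 and Flt3) read low. Their group means lay between 3.52 (Adgre1) and 4.86 (Flt3), so Itgax and Cd68 raised the mean of the list. The part of these markers in the levels of the members was not tested.

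The genes most like a member were taken as those whose 4 group means, each centred on the gene's own mean, lay nearest by root mean square difference. This is a description over 4 groups. For Csn3 they were Aldoc (0.09 log2 units), Acot2 (0.14), Fads1 (0.17), Atf6 (0.19) and Gm9991 (0.19). Aldoc, a glycolytic aldolase, stood at 8.18, 9.16, 6.02 and 6.22 in the conventional clone alone and with CsA and the unconventional clone alone and with CsA. For Ambn they were Ccl9 (0.30), Tent5c (0.35), Fat1 (0.46), Ebf1 (0.46) and Elovl4 (0.47). Ccl9, a chemokine, stood at 9.46, 4.68, 5.34 and 4.38.

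The same measure was computed for the other 3 variable members after their values had been seen. The nearest to Csn1s1 were Cd36 (0.54), Lta (0.54), Ctla4 (0.66), Plek (0.68) and Ifng (0.71), which include the cytokine genes of lymphotoxin and interferon gamma and the inhibitory receptor CTLA-4. Lta stood at 10.32, 6.37, 8.14 and 5.39. The nearest to Csn2 were Ermn (0.44), Ptprg (0.52), Lilr4b (0.53), Lilrb4a (0.55) and Tnip3 (0.58), of which Lilr4b and Lilrb4a are close paralogs whose probes may read each other. BC037156 took place 8 for Csn2 (0.60) and place 14 for Csn1s1 (1.01) among all genes outside the members, and place 1803 (1.12) for Csn3, the member beside it. The nearest to Amtn were Ncam2 (0.06), Zc3h12d (0.08), Sh2d1a (0.11), Slc6a14 (0.15) and Ada (0.16). Sult1e1 took place 72 for Amtn (0.30) and place 19309 (2.64) for Csn1s1, the member beside it.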

How the data were processed

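Each of 16 RNA samples was labelled with an Affymetrix whole-transcript kit and read on 1 array, per the labels' protocols. The log2 expression values were used as deposited by the authors, with GCOS, Partek 6.2 and RMA named in the submitters' processing notes without role or order. That the scale is log2 follows from the range of values, 2.08 to 14.55, and the genome build is not given in the sources used here. RMA equalises the distributions of arrays, so a shift shared by most transcripts would not show. The platform annotation gave a single gene symbol for 21789 of 28853 probe sets, and for 999 genes the probe set with the highest mean was kept.

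A model of 4 group means was fitted with limma 3.58.1 (R 4.3.3, statmod 1.5.0; 12 residual degrees of freedom), for 5 contrasts, with two-sided tests and Benjamini-Hochberg adjustment over 19938 genes. No filter on dim genes was used, and the fit was tested on simulated data. The members and the 10 gene lists (82 of 88 genes measured) were chosen with earlier results of these data known. Named genes were the members, neighbours between members or called with a log2 change of at least 1, up to 4 genes per list, and the 5 genes nearest to Csn3 and to Ambn. After values were seen, list genes were limited to changes of at least 1, and Stat5b, Wap, Elf5, Epcam, Cd3e, Cd4, Cd5, Amelx and the genes near Csn1s1, Csn2 and Amtn were added. Same-numbered arrays of different groups deviated together in 3 of 24 pairs (correlation over 0.1; range −0.137 to 0.284), so numbers were not taken to pair samples. The 22 alternatives comprised another normalization, array centring, a filter on dim genes, the mean of probe sets, a trended robust prior, the replicate block and leaving out each array.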

Additional observations from a re-analysis of the deposited data

Results flagged for a closer look

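In 10 of 156 groups of 4 arrays checked, 1 array stood far from the other 3, where chance gives about 1 in 20. Among the members this was replicate 4 of the conventional clone with CsA for Csn1s1, at 9.19 against a group median of 8.87, and replicate 3 of that group for Csn2, at 8.82 against 9.39. Leaving out 1 array at a time, the CsA change in the conventional clone lay between −3.55 and −3.43 for Csn1s1. For Csn2 it lay between −2.36 and −2.15. In the conventional clone with CsA, BC051076 read 4.51 on replicate 1 (median 4.20), Dck read 7.03 on replicate 2 (6.59) and Cdh1 read 5.21 on replicate 4 (5.01). In the unconventional clone with CsA, BC051076 read 3.98 on replicate 2 (4.15), Fam83h 7.57 on replicate 3 (7.64) and Cd68 9.04 on replicate 1 (9.16). Cabs1 read 4.28 on replicate 3 of the conventional clone under anti-CD3 alone (4.01), and Dck 9.53 on replicate 1 of the unconventional clone under anti-CD3 alone (9.70).

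The difference of CsA effects is the unconventional minus the conventional effect on the log2 scale. It was counted as called for 3 members, and nothing is read from that count. Given as a description, it was −0.47 (SE 0.15) for Csn3, 3.34 (SE 0.14) for Ambn and −1.11 (SE 0.18) for Amtn. Csn3 was counted in 11 of 21 alternatives. Csn2, at 0.51 (SE 0.19), and Odam, at 0.38 (SE 0.14), were not counted, though their differences were close in size to that of Csn3. Among the neighbours the CsA effect differed in limma's test by −0.66 for Sult1e1 (adjusted p = 0.0446, a call lost in 13 of 16 fits without 1 array). In the same test it differed by 1.27 for Dck (adjusted p = 3.0e-06) and by 0.48 for Mkrn1-ps1 (adjusted p = 0.0035). Among the casein regulators it differed by 2.45 for Socs3 (adjusted p = 1.4e-08; 1.64 with the mean of its probe sets), 1.34 for Jak2 (8.6e-09), 1.25 for Stat5a (1.5e-06), −0.83 for Cish (6.3e-06) and 0.27 for Stat5b (0.0383). In the other lists it differed by −1.16 for Mfge8 (adjusted p = 7.5e-06), 0.63 for Fam20a (0.0057), 2.07 for Cdh1 (3.0e-05), −0.57 for Itgax (0.0027) and −1.17 for Cd8a (3.5e-07).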

How the results depend on the processing

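The log2 changes of the members moved by less than 1 SD between replicates in 915 of 915 comparisons with an alternative, and none changed direction where it was called. Most of these comparisons could not have come out otherwise. Leaving out 1 of 4 arrays cannot move a change by more than that SD. The replicate block, the trended robust prior and the brighter genes left each change as it was. Only median centring and quantile normalization could have moved one further, so robustness is not read from this count. With the replicate block the members called numbered 5, 4, 4, 6 and 6, in the order CsA in the conventional clone, CsA in the unconventional clone, difference of effects, clones with anti-CD3 alone and clones with CsA, beside 5, 5, 3, 6 and 6 without it. Over all genes the block gave 2505 higher and 2455 lower with CsA in the unconventional clone, beside 2518 and 2452. For the difference of effects it gave 1685 and 1544, beside 1696 and 1551. With only genes at or above the median brightness, Csn1s1, Csn2 and Csn3 were the members tested, and 3, 3, 1, 3 and 3 were called. The dimmer members, Ambn and Amtn among them, were then not tested. That setting tested 9969 genes. With CsA it called 2943 higher and 3051 lower in the conventional clone, and 2484 and 2594 in the unconventional clone. For the difference of effects these counts were 1793 and 1623. Between the clones they were 3853 and 2974 with anti-CD3 alone and 3998 and 3258 with CsA. Leaving out 1 array at a time gave 4 to 5, 4 to 5, 2 to 3, 6 to 6 and 5 to 7 members. Nothing is read from these counts of members. The neighbouring genes called between the clones with anti-CD3 alone fell from 11 to 6 with median centring, 7 with quantile normalization and 6 with the brighter genes, and the cause was not tested for the first pair of settings. Over all genes the calls went from 4048 higher and 4328 lower to 4316 and 3025 with median centring. With quantile normalization they went to 3811 and 3889. With the brighter genes the dimmer neighbours were not tested, and the counts over all genes are those given above. For other named genes 3145 comparisons kept their side of the threshold, 70 lost a call and 20 gained one. Each member had 1 probe set, so the mean of probe sets gave no other value. With a single clone of each kind, the kind of clone and whatever else differed between the cultures cannot be told apart, and 4 arrays per group limit the precision.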
